A study of Rattus norvegicus with 48 samples.

Results

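Slco1a4 and Slco1c1 encode the organic anion transporting polypeptides OATP1A4 and OATP1C1 of the brain endothelium, and their transcripts were followed in cerebral endothelial cells (CECs) of fed and fasted rats. The members are these 2 genes of 13050 tested. They were chosen by their read counts in these same samples: both are among the 53 ABC and SLC genes that the study lists as changed by fasting, and they were put together for their abundance relative to each other and their shared time course. Their levels, their fold changes, their read ratio and the likeness of their time courses are therefore given below as a description, without a test.

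The CECs came from the cortex of male Wistar-Han rats that were fed ad libitum (AL rats) or that had gone without food for 1 day (F1 rats), 2 days (F2 rats) or 3 days (F3 rats) before the cells were taken. Each isolation used 4 rats, and the tissue was digested in pools of 2 cortices. CD11b-positive microglia were depleted and CD31-positive cells were sorted with magnetic beads. Each of the 4 groups held 3 independent samples, named i, j and k, with 4 technical replicates each that were summed. A sample had between 20718644 and 25960874 reads assigned to genes.

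OATPs are membrane carriers that exchange bulky organic anions across the cell membrane without using ATP. OATP1C1 has a high affinity for thyroxine, which it brings from the blood to the brain, where thyroxine is converted to the active hormone triiodothyronine. OATP1A4 has a wider range of substrates, among them bile acids, conjugated steroids, thyroid hormones and drugs such as digoxin and statins. Both transcripts are known for their enrichment in brain capillaries, and OATP1A4 is found on the luminal and the abluminal membrane of the endothelium.

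The genes lie close together. In the rat annotation of RefSeq (GRCr8), Slco1c1, Slco1b2, Slco1a4, Slco1a1, Slco1a3, Slco1a6 and Slco1a5 follow each other in this order on chromosome 4 with no other protein-coding gene between them. Slco1a4 therefore has close relatives nearby. Reads with more than 1 match in the genome were discarded by the authors, so reads from stretches shared with these relatives may be missing from the counts of Slco1a4, and how many were lost was not tested. The libraries were stranded, but the strand setting of the counting is not given in the sources used here. Whether reads from genes that overlap on the opposite strand were kept apart from those of the members is therefore not known.

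Of the 2 genes, Slco1a4 matched an entry in the table of promoter regions, with 250 bases before and 50 bases after the start of the gene (RefSeq, GRCr8, chr4:176495797-176496096, minus strand). The region is shown as the annotated start of the gene, and the capitals mark 2 short motifs.

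Slco1a4 promoter: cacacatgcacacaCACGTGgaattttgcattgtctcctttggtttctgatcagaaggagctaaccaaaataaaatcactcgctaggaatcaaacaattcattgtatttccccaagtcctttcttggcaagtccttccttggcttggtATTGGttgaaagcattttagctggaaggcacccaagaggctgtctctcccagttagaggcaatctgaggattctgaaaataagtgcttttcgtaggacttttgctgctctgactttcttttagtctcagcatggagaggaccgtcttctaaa

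The letters CACGTG, an E-box, which is its own reverse complement, begin 236 bases before the start and are found in 6.42% of the 33469 promoter regions of this length in the table. The letters CCAAT, present here on the opposite strand from 102 bases before the start, are found in 37.5% of the regions. The letters AGGTCA, a half-site of nuclear receptors, searched on both strands, are in 16.2% of the regions but not in that of Slco1a4. The motifs were chosen after the sequence had been seen, they do not overlap each other, and a match is a string of letters and no evidence of a bound factor.

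Both transcripts were highest in AL rats, lower in F1 rats, closer to the AL level in F2 rats and lower again in F3 rats. The values are normalized counts, which are reads scaled to a common library size by TMM factors, and they allow a gene to be compared between samples but not with another gene. Slco1a4 had 84982, 77320 and 81948 normalized counts in AL samples i, j and k. It had 68358, 57347 and 64745 in the F1 samples. In the F2 samples it had 74999, 75381 and 74981. Its F3 values were 58421, 66826 and 56384. Every AL sample was above every F2 sample, and every F2 sample was above every F1 and F3 sample, whereas the F1 and F3 samples overlapped. The means were 81417 ± 3859 in AL, 63483 ± 5613 in F1, 75120 ± 226 in F2 and 60544 ± 5535 in F3 rats (SD, n = 3 each). Relative to the AL mean this is a difference of -22.0% in F1, -7.73% in F2 and -25.6% in F3 rats.

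For Slco1c1, the thyroxine carrier, AL samples i, j and k had 109565, 110764 and 110414 normalized counts. The F1 samples had 94435, 87125 and 88941. The F2 samples had 106532, 106076 and 105176. The F3 samples had 90354, 96202 and 79829. The order of the groups was the same as for Slco1a4, again with no overlap of AL with F2 samples or of F2 with F1 and F3 samples, and with F1 and F3 samples overlapping. The means were 110247 ± 617 in AL, 90167 ± 3806 in F1, 105928 ± 690 in F2 and 88795 ± 8297 in F3 rats (SD, n = 3 each), with differences from the AL mean of -18.2%, -3.92% and -19.5%.

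**Figure D1:**
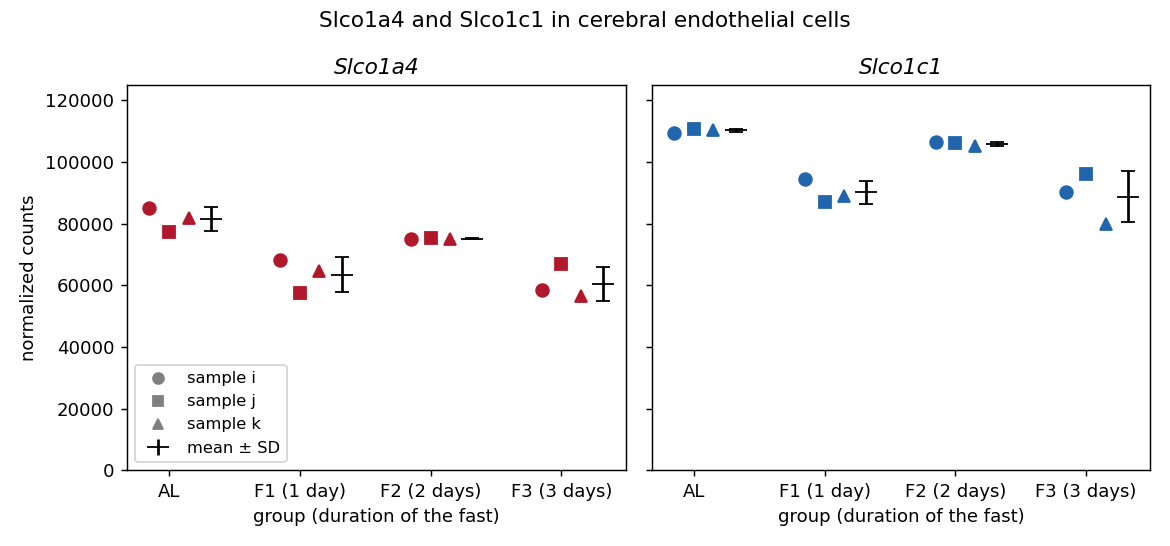
Normalized counts (linear axis from 0) of Slco1a4 (left) and Slco1c1 (right) in the 12 samples by group, with symbols for samples i, j and k and a bar for the mean ± SD of 3 samples. In both panels the F2 samples lie between the AL samples above and the F1 and F3 samples below, and the F3 samples of Slco1c1 spread most, from 79829 to 96202.

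The separation of neighbouring groups was wide between F2 and the other fasted groups and narrow between AL and F2. The lowest F2 value of Slco1a4, 74981, stood above the highest F1 value of 68358 and the highest F3 value of 66826. In contrast, the lowest AL value of 77320 was close to the highest F2 value of 75381. For Slco1c1 the lowest AL value of 109565 and the highest F2 value of 106532 were likewise close. With upper quartile scaling AL and F2 samples overlapped for both genes: the F2 samples of Slco1a4 reached 77781 with AL samples from 75958, and those of Slco1c1 reached 109454 with AL samples from 108814. With DESeq2's size factors and with total counts they did not overlap.

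Because the members were chosen for this pattern, it was only set beside all genes. The order with every AL sample above every F2 sample and every F2 sample above every F1 and F3 sample was found in 65 of 13050 genes (0.498%), the members included. This count was 69 with DESeq2's size factors, 98 with total counts and 58 with upper quartile scaling, where neither member was among them. Taking the comparisons singly, both members had every F1 sample below every AL sample, as had 14.1% of all genes. They had every F2 sample below every AL sample, as had 8.66%, and every F3 sample below every AL sample, as had 18%. They had every F2 sample above every F1 sample, as had 9.75%, and every F3 sample below every F2 sample, as had 12.1%.

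The Log2 fold changes (LFC) come from edgeR's quasi-likelihood model of the 12 samples, and their standard errors from the same model. For Slco1a4 the LFC against AL rats was -0.36 ± 0.09 in F1, -0.12 ± 0.09 in F2 and -0.43 ± 0.09 in F3 rats (SE, n = 3 per group). The LFC of F2 against F1 rats was 0.24 ± 0.09 and that of F3 against F2 rats -0.31 ± 0.09. For Slco1c1 the LFC against AL rats was -0.29 ± 0.08 in F1, -0.06 ± 0.08 in F2 and -0.31 ± 0.08 in F3 rats. Here the LFC of F2 against F1 rats was 0.23 ± 0.08 and that of F3 against F2 rats -0.26 ± 0.08. The LFC of Slco1a4 minus that of Slco1c1 was -0.07, -0.06 and -0.12 in F1, F2 and F3 against AL, 0.01 in F2 against F1 and -0.06 in F3 against F2. The F1, F2 and F3 comparisons share their AL samples, and the comparisons with F2 share the F2 samples, so that they are not independent.

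**Figure D2:**
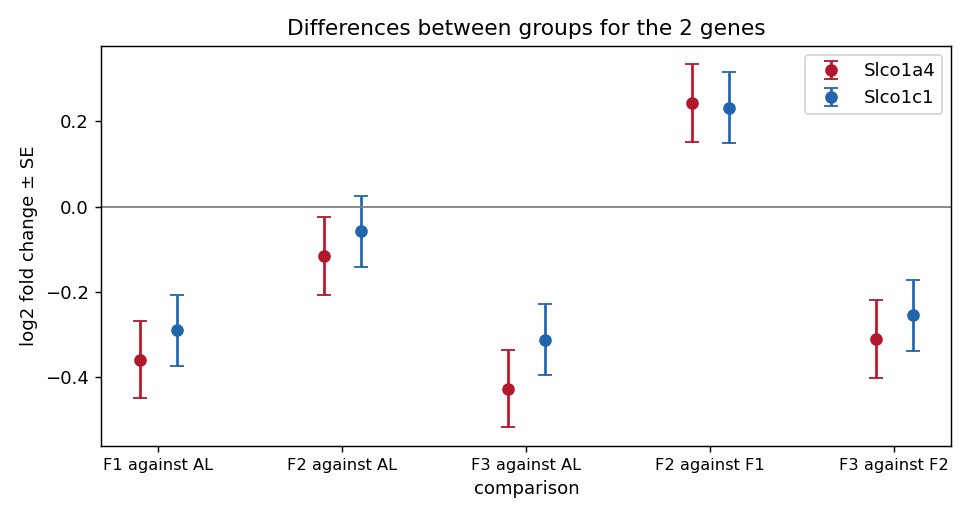
Log2 fold change (vertical axis, log2 scale) of Slco1a4 and Slco1c1 in 5 comparisons, with bars for the standard error of the edgeR model of the 12 samples. Both genes lie below 0 in F1 and F3 against AL and in F3 against F2, above 0 in F2 against F1, and closest to 0 in F2 against AL, at -0.12 and -0.06.

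Many other genes had a lower LFC than the members, in a set that includes genes with few reads. Of all 13050 genes, 10.9% had a lower LFC than Slco1a4 in F1 rats and 8.48% in F3 rats against AL rats. For Slco1c1 these shares were 14.2% and 13.3%. In F2 rats against AL rats 28.0% of genes had a lower LFC than Slco1a4 and 39.1% a lower one than Slco1c1. Among the 45 genes with a mean of at least 50000 normalized counts, by contrast, the members were near the low end. In F1 against AL Slco1a4 had rank 2 and Slco1c1 rank 3 from the lowest LFC, in a set that reached from -0.39 to 1.70 with a median of 0.06. The ranks were the same in F3 against AL, where the set reached from -0.52 to 1.83 with a median of 0.01.

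The counts behind these values are large. Slco1a4 had between 54573 and 92356 reads per sample and Slco1c1 between 80397 and 119072. Together both genes took 0.853%, 0.787% and 0.836% of the assigned reads of the AL samples, and 0.673%, 0.592% and 0.638% of those of the F1 samples. Their share was 0.746%, 0.778% and 0.756% in the F2 samples and 0.617%, 0.680% and 0.571% in the F3 samples. The share of F2 samples thus lay below that of all AL samples and above that of all F1 and F3 samples, also without any scaling beyond the library size. The coefficient of variation between the 4 technical replicates of a sample, on reads as a share of the library, was between 0.0484% and 0.868% for the 2 genes. Technical replicates share their sample, so this covers technical error within a sample only. The SD of the log2 normalized count within groups was 0.098 for Slco1a4 and 0.075 for Slco1c1, with a median of 0.128 over 9459 genes with a mean of at least 100. Of these genes 29.4% varied less than Slco1a4 and 13.5% less than Slco1c1.

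The abundance of the 2 transcripts relative to each other was read from the ratio of their reads within a sample, which needs no scaling between samples. No gene lengths were used here, so the ratio can be compared between samples but does not say which gene has more transcripts per cell. The ratio of Slco1a4 to Slco1c1 reads was 0.776, 0.698 and 0.742 in AL samples i, j and k and 0.724, 0.658 and 0.728 in the F1 samples. It was 0.704, 0.711 and 0.713 in the F2 samples and 0.647, 0.695 and 0.706 in the F3 samples. Slco1a4 thus had fewer reads than Slco1c1 in each of the 12 samples. The means were 0.739 ± 0.0391 in AL, 0.703 ± 0.0393 in F1, 0.709 ± 0.00473 in F2 and 0.683 ± 0.0314 in F3 rats (SD, n = 3 each), and F1, F2 and F3 samples each overlapped with AL samples. Technical replicates of a sample gave nearly the same ratio, for example from 0.771 to 0.788 in AL sample i and from 0.640 to 0.652 in F3 sample i. The spread between samples of a group was thus wider than that between technical replicates in AL, F1 and F3 rats, while in F2 rats the ranges of the technical replicates overlapped. In 7 of the 12 samples both genes deviated from their group mean to the same side.

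**Figure D3:**
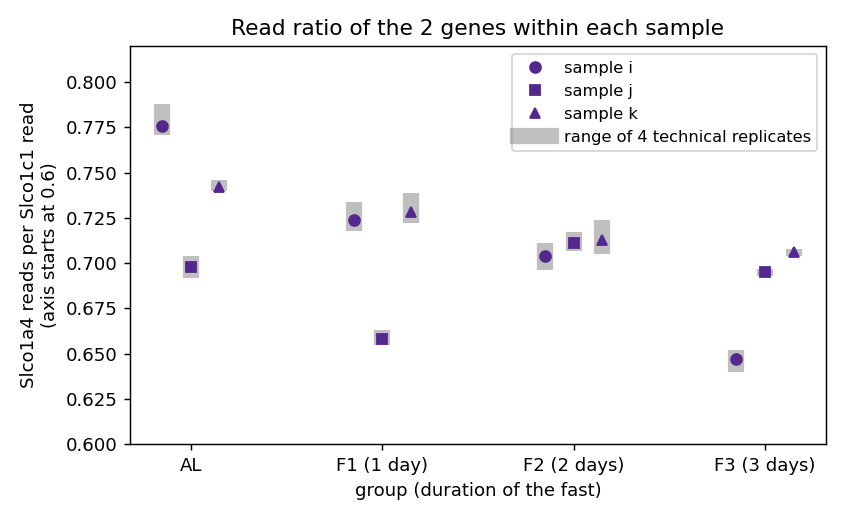
Slco1a4 reads per Slco1c1 read (vertical axis, a ratio, starting at 0.6) in the 12 samples by group, with symbols for samples i, j and k and grey bars for the range of the 4 technical replicates. The ratio lies between 0.647 and 0.776, and the samples of the 3 fasted groups overlap with those of AL rats.

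Against other transcripts of the same cells the ratios depended on the transcript chosen. Abcb1a, which encodes the efflux pump P-glycoprotein, had 74499 ± 1503 normalized counts in AL, 74239 ± 1952 in F1, 76803 ± 8405 in F2 and 74987 ± 2914 in F3 rats. Slco1a4 reads per Abcb1a read were 1.09 ± 0.0709 in AL, 0.854 ± 0.0586 in F1, 0.986 ± 0.117 in F2 and 0.807 ± 0.0586 in F3 rats, and F2 samples, from 0.908 to 1.12, overlapped with AL samples, from 1.03 to 1.17. Slco1c1 reads per Abcb1a read were 1.48 ± 0.0252, 1.21 ± 0.0153, 1.39 ± 0.165 and 1.18 ± 0.0751 in the same order, and again AL and F2 samples overlapped (SD, n = 3 each). Here F2 sample j, with 67163 normalized counts of Abcb1a against 82601 and 80644 in samples i and k, gave the highest ratio of its group for both genes. Pecam1, which encodes CD31 and was used for the sort, had 33089 ± 2171, 37034 ± 1548, 32113 ± 218 and 33891 ± 767 normalized counts in AL, F1, F2 and F3 rats. Per Pecam1 read, Slco1c1 had 3.34 ± 0.199 in AL, 2.44 ± 0.173 in F1, 3.30 ± 0.0379 in F2 and 2.63 ± 0.301 reads in F3 rats, and F2 samples lay within the range of AL samples. Glucose transporter Slc2a1, by contrast, was higher in F1 and F3 than in AL rats (LFC 0.43 ± 0.09 and 0.52 ± 0.09, adjusted p = 0.0109 and 0.00194, edgeR's quasi-likelihood test) and is itself on the study's list of changed transporters. In F2 rats its LFC was 0.40 ± 0.09 (adjusted p = 0.0503). Without F1 sample j the call in F1 was lost (adjusted p = 0.0549). Slco1c1 reads per Slc2a1 read were 0.390 ± 0.0359 in AL, 0.236 ± 0.0158 in F1, 0.282 ± 0.0119 in F2 and 0.218 ± 0.0176 in F3 rats.

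The genes with the most similar time course were sought by the root mean square distance of log2 normalized counts, each centred on its own mean over the 12 samples. Of the 9458 genes compared, which had a mean of at least 100 normalized counts, 1263 had a symbol here, most of them from the start of the alphabet, and only those are named. The nearest named gene to each member was the other member, at a distance of 0.067, against a median of 0.238 for Slco1a4 and 0.207 for Slco1c1 over all genes compared. Among all genes, named or not, Slco1c1 was at rank 4 from Slco1a4, and Slco1a4 at rank 9 from Slco1c1. A gene with no variation at all would lie at 0.193 from Slco1a4 and 0.152 from Slco1c1. The members were put together for their shared time course in these same samples, so their closeness to each other follows from that choice. Their distance is a description only, and shared regulation was not tested.

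The gene next in order for both members was Slc16a4, a member of the family of monocarboxylate carriers, at 0.068 and 0.071. Slc16a4 had 3236, 2998 and 2871 normalized counts in AL samples i, j and k and 2592, 2077 and 2301 in the F1 samples. It had 2825, 2842 and 2952 in the F2 samples and 2451, 2631 and 2109 in the F3 samples. Its AL and F2 samples overlapped, unlike those of the members. For Slco1a4 the next genes were Ammecr1l at 0.075, Slc35a1, which carries CMP-sialic acid into the Golgi, at 0.081, and Acad11, an acyl-CoA dehydrogenase, at 0.085. For Slco1c1 they were AABR07011996.1 at 0.072, a feature with a clone name, and Abhd4, a lipase of N-acyl phospholipids, at 0.079. Slc16a4 and Slc35a1 are also on the study's list of changed transporters. That list was a source of the symbols used here, so transporters on it could be named where others could not. With Pearson's correlation in place of the distance, 3 of the 5 genes named for Slco1a4 were again among the nearest 5.

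**Figure D4:**
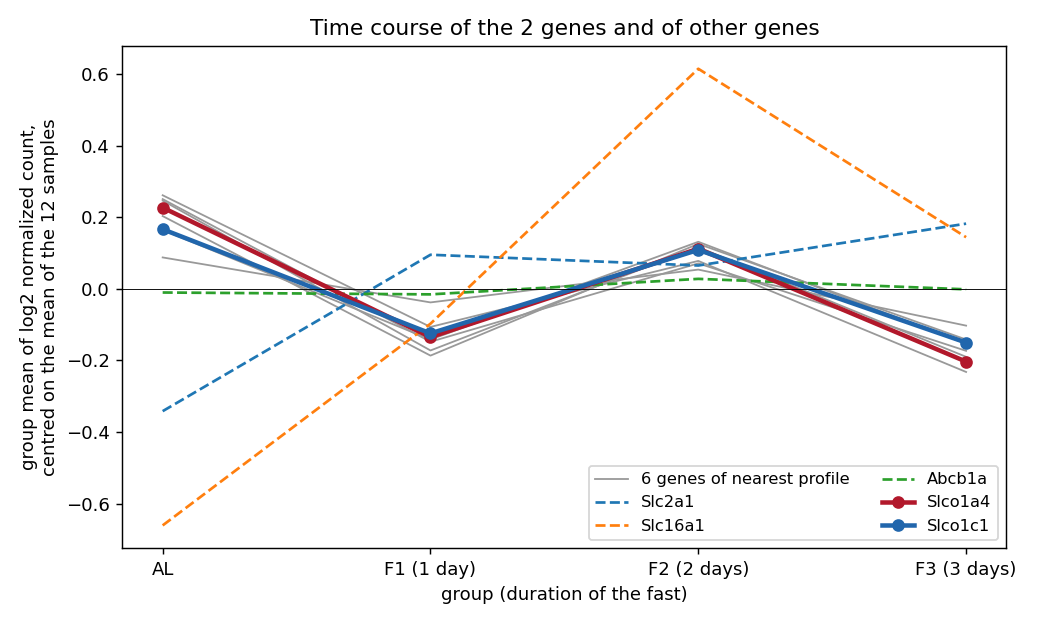
Group means of the log2 normalized count, centred on the mean of the 12 samples (vertical axis, log2 scale), for Slco1a4, Slco1c1, the 6 other genes of nearest profile (grey) and, for comparison, Slc2a1, Slc16a1 and Abcb1a (dashed) in the 4 groups. The members and the grey genes are highest in AL rats and have a second peak in F2 rats, while Abcb1a is nearly level and Slc2a1 and Slc16a1 are lowest in AL rats.

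Of the other genes of organic anion and thyroid hormone transport, few could be followed. The lists held 89 symbols of OATPs, thyroid hormone transporters, deiodinases and binding proteins, thyroid hormone receptors and response genes, other organic anion transporters, and xenobiotic receptors, and 14 of them, without the members, had an identifier and were tested. Of the 17 OATP symbols only the members had an identifier, and of the 11 symbols of thyroid hormone metabolism and binding there was none; the others were not analysed here. Among the 14 genes, those called by edgeR's quasi-likelihood test (adjusted p of at most 0.05) numbered 0 in F1 against AL, 0 in F2 against AL, 1 in F3 against AL, 0 in F2 against F1 and 2 in F3 against F2, each of them lower. At an unadjusted p under 0.05 there were 3, 3, 3, 3 and 4, and DESeq2's Wald test called 1, 0, 2, 3 and 3. Over all genes edgeR called 6.56%, 0.858%, 12%, 1.43% and 5.94% in these comparisons, in either direction. DESeq2's Wald test called 1241, 359, 1879, 616 and 1228 of all genes in the same order. At an unadjusted p under 0.05, edgeR with DESeq2's size factors had 2708, 1684, 3384, 2256 and 2876 of the 13050 genes.

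Slc43a2, which encodes the amino acid carrier LAT4 and stood in the list of thyroid hormone transporters, was the call in F3 against AL and 1 of the 2 calls in F3 against F2. It had 1538, 1273 and 1483 normalized counts in AL samples i, j and k and 1036, 1004 and 1252 in the F1 samples. It had 1416, 1478 and 1458 in the F2 samples and 917, 1253 and 1085 in the F3 samples. All its F1 and F3 samples were below all its AL and F2 samples, and the share of all genes with this joint order was not counted. Taken singly, Slc43a2 shared F1 below AL with 14.1% of all genes and F3 below AL with 18%. It shared F2 above F1 with 9.75% and F3 below F2 with 12.1%. Its LFC was -0.40 ± 0.11 in F3 against AL (adjusted p = 0.0358) and -0.42 ± 0.11 in F3 against F2 (adjusted p = 0.0450). The first call was lost without AL sample i or k or F3 sample i or k (adjusted p from 0.100 to 0.160), and the second without AL sample i or k, F1 sample i or j, any F2 sample or F3 sample i or k (adjusted p from 0.0508 to 0.190). Both were lost with only the 6 samples compared (adjusted p = 0.0692 and 0.0935), and the second with total counts (adjusted p = 0.0532). In F1 against AL, where DESeq2 but not edgeR called it, as in F2 against F1, it had an LFC of -0.38 ± 0.11 (adjusted p = 0.0615 by edgeR), and in F2 against AL one of 0.02 ± 0.11. The other gene of this list, Slc7a8, which encodes LAT2, a carrier of neutral amino acids and of some thyroid hormones, had 4329 ± 607, 5329 ± 255, 4847 ± 382 and 5384 ± 410 normalized counts in AL, F1, F2 and F3 rats and was not called in any comparison by edgeR, whereas DESeq2 called it in F3 against AL. Both genes had been listed by the study as changed in these samples, so their count is no independent evidence of a direction.

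Of the 17 other organic anion transporters 9 were tested, and edgeR called 1, in F3 against F2 only. This was Abcc10, an efflux pump of the MRP family, which DESeq2 called in F2 against F1 as well. It had 467, 408 and 373 normalized counts in the AL samples and 346, 267 and 357 in the F1 samples. It had 442, 468 and 436 in the F2 samples and 263, 369 and 326 in the F3 samples. Its F1 and F3 samples were all below all AL and F2 samples, a joint order whose share of all genes was not counted. Taken singly, Abcc10 shared the orders in it with 9.75% to 18% of all genes. Its LFC in F3 against F2 was -0.49 ± 0.14 (adjusted p = 0.0496), a call that was lost with DESeq2's size factors (adjusted p = 0.0509) and without AL sample j or k, F1 sample i or k, any F2 sample or F3 sample i or k (adjusted p from 0.0525 to 0.201). It was also lost with total counts (adjusted p = 0.0532), with at least 10 reads in every sample (adjusted p just above the threshold) and with only the 6 samples compared (adjusted p = 0.0901). The median LFC of the 9 genes lay between -0.02 and 0.07 in the 5 comparisons, and that of all genes between -0.008 and -0.002. The genes of this list with the most reads were Abcb1a, given above, Abcg2, which encodes the efflux pump BCRP, and Abcc4, which encodes MRP4. Abcg2 had 21901 ± 2556, 24770 ± 1458, 28356 ± 4134 and 25738 ± 3324 normalized counts in AL, F1, F2 and F3 rats. Abcc4 had 15074 ± 132, 15892 ± 1001, 13269 ± 2817 and 13593 ± 897. Neither was called in any comparison by edgeR or DESeq2, and Abcg2 had an unadjusted p of 0.00997 in F2 against AL. From the lists of thyroid hormone response genes and xenobiotic receptors, Bcl3, Ahr and Arnt were tested and not called by edgeR, with LFC against AL between -0.44 and 0.44. Bcl3, from the list of thyroid hormone response genes, had 419, 714 and 606 normalized counts in the AL samples. It had 756, 869 and 734 in the F1 samples, 475, 451 and 499 in the F2 samples and 1044, 556 and 694 in the F3 samples. Unlike for the members, its mean was lower in F2 than in F1 and F3 rats. Its LFC was -0.73 ± 0.22 in F2 against F1 (adjusted p = 0.122) and 0.69 ± 0.22 in F3 against F2 (adjusted p = 0.0922) by edgeR, and DESeq2 called it in both.

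The cell type was checked with markers, few of which had an identifier. Pecam1 was present in all samples, from 31655 to 38791 normalized counts, and the other general endothelial markers of the list but Slc2a1 were not analysed here. The 6 microglial markers with an identifier had summed levels of 57 to 134 normalized counts, Acta2 of smooth muscle 126 to 366, Aldoc of astrocytes 1530 to 2277, Aqp1 of the choroid plexus 3 to 79 and Alas2 of red blood cells 36 to 110. None of these markers, or of the pericyte markers, was called in any of the 5 comparisons by edgeR or DESeq2, although 0, 1, 2, 2 and 2 of the 13 had an unadjusted p under 0.05 in edgeR in the 5 comparisons, in the order used above. Only genes with at least 1 read in each sample were tested, so none of these markers could be at 0 in a sample. Of the pericyte markers, 3 of 10 had an identifier, Abcc9, Anpep and Atp13a5, and 0 of 3 were called by either tool, with 2 at an unadjusted p under 0.05 in F2 against F1. Their summed level was 2555 to 6301 in AL, 2801 to 3134 in F1, 3396 to 6636 in F2 and 2268 to 6184 in F3 samples. Unlike for the members, the range in AL overlapped with that of every fasted group, and the range in F3 with that in F2. Only F2 samples were all above F1 samples, an order that 9.75% of all genes had. The part of pericytes in the result of the members was not tested.

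Of the 5 tested markers of segments of the vascular tree, Car4 and Slc38a5 were lower in F1 and F3 rats like the members, whereas Slc16a1, Alpl and Bmx were not. Car4, a carbonic anhydrase and 1 of the 2 tested markers of capillary endothelium, had 7695 ± 628, 5720 ± 379, 7742 ± 937 and 5309 ± 672 normalized counts in AL, F1, F2 and F3 rats and fell in F1 and F3 against AL (LFC -0.43 ± 0.11 and -0.54 ± 0.11, adjusted p = 0.0356 and 0.0066) and in F3 against F2 (LFC -0.54 ± 0.11, adjusted p = 0.0143). The call in F1 was lost without AL sample i or k or any F1 sample (adjusted p from 0.0576 to 0.126), and that in F3 against F2 without F3 sample k (adjusted p = 0.0610) or with only the 6 samples compared (adjusted p = 0.0621). The other tested marker, Slc16a1, which encodes the monocarboxylate transporter MCT1, rose in F1, F2 and F3 against AL (LFC 0.56 ± 0.14, 1.26 ± 0.14 and 0.79 ± 0.14, adjusted p = 0.0276, 0.00203 and 0.0022) and in F2 against F1 (LFC 0.70 ± 0.14, adjusted p = 0.0300). Its call in F1 against AL was lost without AL sample j or k or F1 sample i or k (adjusted p from 0.0588 to 0.108), and that in F2 against F1 without F1 sample i or j, F2 sample j or k or F3 sample k (adjusted p from 0.0523 to 0.167). With only the 6 samples compared it was not called in F1 against AL (adjusted p = 0.0911), F2 against AL (0.0617) or F2 against F1 (0.0506), and with total counts not in F1 against AL (0.0580). The summed level of both was 18676 to 24628 in AL, 23736 to 30300 in F1, 37918 to 44567 in F2 and 28061 to 30245 in F3 samples. Most of this sum was Slc16a1, with means from 13975 in AL to 33485 in F2 rats. The study attributes the rise of Slc16a1 in fasting to the nuclear receptor PPAR δ. The sum was not used as a measure of capillary content. Slc38a5, an amino acid carrier and the only tested marker of venous endothelium, ranged from 2708 to 3831 in AL, 2141 to 2663 in F1, 2732 to 3012 in F2 and 2194 to 2545 in F3 samples and fell in F1 and F3 against AL (LFC -0.48 ± 0.12 in both, adjusted p = 0.0281 and 0.0182). These calls were lost without AL sample i or k or F1 sample j or k (adjusted p from 0.0737 to 0.132) and without AL sample i or F3 sample i or k (adjusted p from 0.0773 to 0.0897), and both with only the 6 samples compared (adjusted p = 0.0938 and 0.0531). Of the arterial markers, 2 were tested, Alpl and Bmx, with summed levels of 7121 to 8836, 8995 to 9757, 7902 to 10883 and 8615 to 9549, and neither was called by edgeR or DESeq2, with an unadjusted p under 0.05 for both in F1 and for 1 in F2 against AL. Whether the mix of vessel segments had a part in the levels of Slco1a4 and Slco1c1 was not tested, and in bulk samples fewer cells of a type and less RNA per cell cannot be told apart. Slc16a1, Slc38a5 and Slc2a1 are on the study's list of changed transporters.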

How the data were processed

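RNA-Seq was made on polyadenylated RNA with stranded libraries from 12 samples of CECs. After trimming and a quality filter, the authors mapped the reads with STAR to the Ensembl rat assembly (Rnor_6.0 in the submitters' processing notes), discarded those with several matches and counted the rest per gene with HTSeq 0.5.3. The deposited values are raw counts per gene in 48 files, which list 32624 features each. The 4 technical replicates of a sample were summed.

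Genes with at least 1 read in each sample (13050) were fitted in R 4.3.3 with edgeR 4.0.16 (TMM factors, quasi-likelihood model with robust estimates, 4 group means, 12 samples). P-values were adjusted over all genes tested by the Benjamini-Hochberg method, with a threshold of 0.05. A normalized count is the count times the mean effective library size (library size times TMM factor) over that of the sample. Alternatives were other scalings, DESeq2 1.42.0, other filters, only the 6 samples compared, the replicate letter as a block, and each sample left out in turn. The test was tried on simulated counts with 200 changed genes. The changes planted there were larger than those of the members, so the trial does not cover changes of their size. Symbols came from the study's supplementary tables, 1 of them shortened, and paired 2043 features with a name. For replicate d of F1 sample k the labels name a fast of 1 day in part and of 2 days in part, and by its title it was kept in F1.

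The members and the gene lists were chosen with earlier results of these data known. Named besides the members are, from the lists of transport and hormone genes, those past the threshold and the 3 with the most reads, markers past the threshold, and for each member the 5 genes with a symbol of nearest profile, with 1 exception that is not reported here. Other genes, given in the closing part, were chosen after their values had been seen. For both members, technical replicates of a sample varied less than the samples of F1 and of F3 rats.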

Additional observations from a re-analysis of the deposited data

How the results depend on the processing

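The LFC of Slco1a4 and Slco1c1 kept their direction in all 5 comparisons under 9 alternatives of processing and without each sample in turn. Among these 9 were a fit of only the 6 samples compared and a fit without the technical replicate of conflicting labels. Against AL, Slco1a4 ranged over the 9 alternatives from -0.42 to -0.35 in F1, from -0.15 to -0.10 in F2 and from -0.47 to -0.42 in F3, and Slco1c1 from -0.35 to -0.28, from -0.09 to -0.04 and from -0.36 to -0.30. Without single samples Slco1a4 ranged from -0.42 to -0.29, from -0.16 to -0.08 and from -0.50 to -0.38, and Slco1c1 from -0.32 to -0.27, from -0.06 to -0.05 and from -0.37 to -0.24. The most negative values against AL among the 9 came with total counts, which moved the median LFC of all genes in F1 to -0.065. With total counts 38.7% of the calls in F1, 46.0% in F2 and 41.0% in F3 against AL were rises, against 59.0%, 57.1% and 52.1% with TMM, and with upper quartile scaling 67.4% in F2.

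Genes called in all lists together numbered 4, 1 and 5 against AL in F1, F2 and F3, 1 in F2 against F1 and 3 in F3 against F2. In F2 against AL there were 2 with each other scaling, DESeq2's Wald test, at least 10 reads in every sample, the replicate block or without the replicate of conflicting labels, and 0 with only the 6 samples compared (5 at an unadjusted p under 0.05). In F2 against F1 there were 6 with DESeq2's Wald test and 2 with no filter or only the 6 samples. In F3 against F2 there were 5 with DESeq2's Wald test and 1 with total counts, only the 6 samples or the replicate block. Without single samples they ranged from 1 to 5, 1 to 2, 3 to 8, 0 to 2 and 0 to 4. Over all genes edgeR called 6.56%, 0.858%, 12%, 1.43% and 5.94% in the main fit. Of the called genes of the lists, Slc2a1, Slc16a1, Slc38a5 and Slc43a2 are on the study's list of changed transporters. The counts therefore give no rate for the lists.

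Among all genes 856, 112, 1572, 186 and 775 were called. DESeq2's Wald test called 359 in F2 against AL, 616 in F2 against F1 and 1228 in F3 against F2, and with only the 6 samples 0 (1186 at an unadjusted p under 0.05), 56 and 262 were called. Without single samples the ranges were 306 to 1451, 34 to 157, 790 to 2366, 0 to 194 and 164 to 755, with 0 in F2 against F1 without F1 sample j (1516 at an unadjusted p under 0.05) and the highest counts in F1 and F3 against AL without F2 sample j. The replicate block gave 108 in F2 against F1 and moved no other count over all genes by more than 1.5 times; with it Car4 in F1 against AL (adjusted p = 0.0502) and, in F3 against F2, Slc43a2 (0.0568) and Abcc10 (0.0737) were not called. The letters were not taken as pairs in the main fit. Deviations correlated with r over 0.1 in 2 of 18 same-letter pairs (from -0.017 to 0.139). They did so in 1 of 36 other-letter pairs (from -0.193 to 0.204). By mean r, 9 of the 12 samples correlated best with their own letter, so a pairing by letter is not excluded. Counts per kilobase were not run, because no gene lengths were used. The causes of these differences were not tested.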

Other observations

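Among the 65 genes with the group order of the members (every AL sample above every F2 sample, every F2 sample above every F1 and F3 sample), 12 had a symbol. This number depended on the scaling: it was 12 with DESeq2's size factors, 16 with total counts and 5 with upper quartile scaling, without the members. The names below are those with TMM. Besides Slco1a4 and Slco1c1 they were Actb and Actr3, which encode a cytoplasmic actin and a subunit of the actin-nucleating Arp2/3 complex, Afap1l1 and Afap1l2, which encode relatives of an actin filament associated protein, Arhgef15, which encodes an endothelial guanine nucleotide exchange factor, Acad11, Ammecr1l, Bcs1l, which encodes a mitochondrial chaperone, and the clone-named AABR07011996.1 and AABR07065124.1. Their mean over the 12 samples ranged from 7.48 normalized counts for AABR07065124.1 to 56766 for Actb. They were named after their values had been seen. Most symbols available here come from the start of the alphabet, so the names give no picture of the 65 genes.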
